A study of Mus musculus with 3 samples.

Results

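The 7 TRAF genes, Traf1 to Traf7, were followed in RNA bound to chromatin of mouse bone-marrow-derived macrophages. They were taken by gene symbol and are 7 of the 55536 genes of the annotation, or 7 of 22015 protein-coding genes with mitochondrially encoded genes left aside. All 7 were matched. The cells were primary macrophages of strain C57BL/6J, with no transgene or deletion named. They had 100 ng/ml lipid A for 12 h, a washout of 12 h and then 100 ng/ml lipid A for 90 min. Toll-like receptor 4 (TLR4) senses lipid A, the membrane anchor of bacterial lipopolysaccharide. The 3 libraries are biological replicates of this 1 condition, so the TRAF genes were compared with each other and with other genes inside each library. Untreated cells and cells given lipid A once were not analysed here, and no value below says whether a gene responded to lipid A. The labels give neither sex nor age, and do not say whether the replicates were separate animals or cultures. SDs therefore measure the spread between these libraries, which may be technical. The p-values reflect mainly whether a difference had the same sign in these libraries.

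TRAF proteins, the tumour necrosis factor (TNF) receptor-associated factors, are adaptors that pass signals from TNF receptor family members, TLRs and interleukin-1 receptors to NF-kB, MAP kinases and interferon regulatory factors. Most carry an amino-terminal RING domain, which acts in ubiquitin transfer, and a carboxy-terminal MATH (TRAF-C) domain, which binds receptors. TRAF1 lacks the RING domain, and TRAF7 has WD40 repeats in place of the MATH domain. In macrophages TRAF6 stands below MyD88 and the IRAK kinases on the TLR4 pathway, and TRAF3 stands below TRIF and also keeps the kinase NIK low together with TRAF2 and the cIAP ubiquitin ligases. Chromatin-bound RNA includes transcripts that are still being made, so an intron kept in a mature transcript and an intron not yet removed cannot be told apart here.

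Levels are TPM (a length-corrected share of a library's transcripts) from the deposited gene table, given for replicates 1, 2 and 3 in that order and as mean ± SD, n = 3. Total expected counts were 12671700, 21747001 and 16915406, and the labels list 1000, 250 and 500 ng of starting RNA. Protein-coding genes held 34.1%, 27.4% and 29.4% of TPM. The macrophage label was borne out by 10 of 10 macrophage markers at 1 TPM or more in every library, led by Adgre1 (F4/80) at 422 ± 65.5 TPM. The summed level of the macrophage list was 1169 to 1346 TPM. The summed level was 1.33 to 2.34 TPM for 5 T cell markers, 0.0300 to 0.0600 for 3 B cell markers, 0 to 0.340 for 4 neutrophil markers, 0.270 to 1.04 for 4 fibroblast markers and 0.790 to 1.22 for 4 dendritic cell markers. Cd3e, Cd3g, Pax5, S100a8 and Ly6g were at 0, and the highest members of those lists were Cd5 at 1.54, Cd79a at 0.0333, S100a9 at 0.183, Pdgfrb at 0.277 and Zbtb46 at 0.730 TPM.

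All 7 TRAF genes were found on chromatin, over a wide range of levels, and Traf1 stood far above the rest. Traf1 averaged 332 ± 94.5 TPM, Traf7 86.6 ± 14.3, Traf2 24.2 ± 1.07, Traf6 18.8 ± 1.32, Traf3 16.0 ± 1.26, Traf5 10.8 ± 1.03 and Traf4 1.44 ± 0.127. In bulk libraries, fewer cells with a transcript and less of it per cell cannot be told apart. Traf1 alone made up 74.7%, 61.9% and 64.5% of the summed TPM of the family. A level of at least 1 TPM in each library was reached by 7 of 7 TRAF genes and by 41.1% of protein-coding genes. At least 10 TPM in each library was reached by 5 of 7, with Traf4 and Traf5 below, and by 19.1% of protein-coding genes. At least 100 TPM in each library was reached by Traf1 alone, and by 2.07% of protein-coding genes. The median of the 7 genes was 20.3, 17.9 and 18.3 TPM, against a mean of 0.353 TPM for the median of all protein-coding genes.

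**Figure D1:**
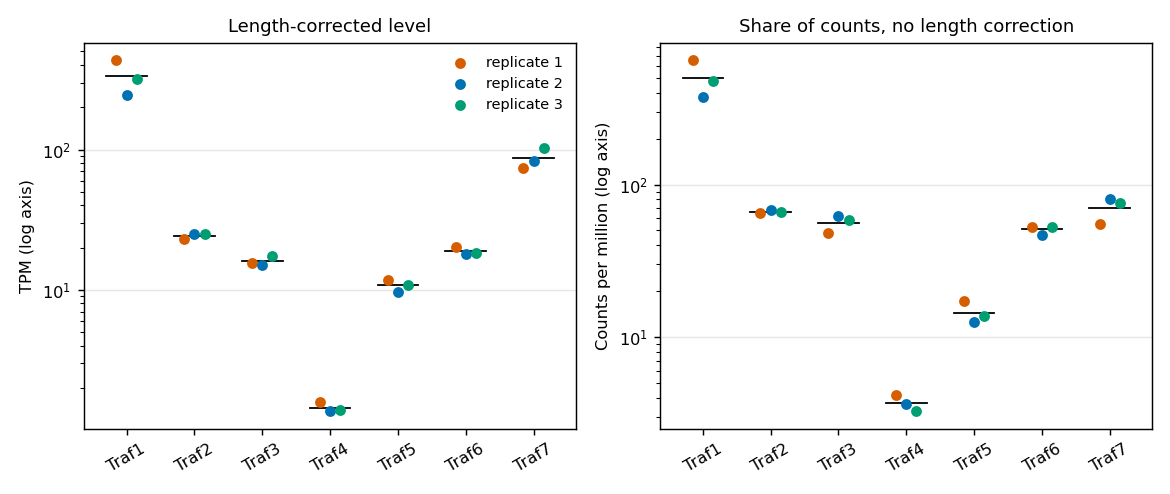
Levels of the 7 TRAF genes in each of 3 libraries, as TPM (left) and as CPM, a share of counts without length correction (right), both on log axes; points are libraries and black lines are means of 3. Traf1 lies above and Traf4 below all other members in both panels, while Traf7 stands apart from Traf2 in TPM but not in CPM.

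In the gene table the order of levels was the same in every library, since 21 of 21 pairs of TRAF genes had the same sign of the within-library difference in log2(TPM + 1) in 3 of 3 libraries. With 3 libraries the exact two-sided sign-flip permutation test cannot go below p = 0.25, and the adjusted p over the 21 pairs (Benjamini-Hochberg) was 0.25 for each, so none was called. Traf1 exceeded the median of Traf2 to Traf7 by 4.15 ± 0.35 (log2 difference, SD, n = 3, exact sign-flip p = 0.25). The next member, Traf7, was lower than Traf1 by 1.90 ± 0.54 on that scale. The table made from reads directly gave another order: Traf5 came next after Traf1 and Traf7 at 56.2 ± 5.24 TPM, above Traf3 at 25.9 ± 1.88, Traf2 at 25.3 ± 0.904 and Traf6 at 17.8 ± 2.26. In the gene table the steps in the middle of the order were small, and Traf2 was above Traf6 by 0.35 ± 0.16, and Traf3 minus Traf6 was -0.23 ± 0.14 (exact sign-flip p = 0.25). The last of these depended on what was counted. Traf3 minus Traf6 was 0.81 ± 0.17 when only protein-coding transcripts were summed, and 0.52 ± 0.19 in the table made from reads directly. In log2 CPM scaled by TMM factors it was 0.13 ± 0.27. The sign for the TRIF-branch against the MyD88-branch adaptor was therefore not the same on every scale. The coding sum of Traf3 included Traf3-204, of 645 bases, with a mean of 5.61 TPM but 3.69% of the gene's counts.

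Traf1, the RING-less member that forms complexes with TRAF2 and the cIAP proteins, lies on chromosome 2 (chr2:34941750-34961772, minus strand, mm10). Its level was 433, 246 and 317 TPM, which placed it at rank 87, 131 and 95 among protein-coding genes. Replicate 1 was the highest and replicate 2 the lowest, and every library was above every library of the other members. Its expected counts were 8156, 8182 and 7999, nearly level across libraries that differed in total counts. The SD of its log2 CPM (read share, scaled by TMM factors) was 0.32, against a median of 0.23 for 442 genes of like level. The order replicate 1 over 3 over 2 is also that of the starting RNA, and the reverse of that of the total counts; their part in it was not tested. That order was shown in TPM by 4 of 7 TRAF genes (Traf1, Traf4, Traf5 and Traf6), by 26.0% of detected protein-coding genes, and by 20 of the 49 detected genes (40.8%) of the pathway lists below. The 3 protein-coding genes with levels most like Traf1, by the largest log2 difference in any of the 3 libraries, were Thrap3 (0.09), Anxa3 (0.10) and Ms4a7 (0.11). Their means were 328 ± 76.4, 341 ± 86.2 and 337 ± 117 TPM.

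In the table made from alignments the highest Traf1 transcript was not a coding one. Traf1-208, annotated as retained intron, is a single exon of 1980 bases that runs through a whole intron of 1678 bases (chr2:34956281-34957958). It had 174, 86.7 and 99.0 TPM, or 40.3%, 35.2% and 31.2% of the gene. The other retained-intron transcript, Traf1-206, had 44.6, 22.9 and 30.7 TPM. The short coding Traf1-209, of 386 bases, had 56.2, 29.5 and 34.1 TPM there. In the table made from reads directly Traf1-209 and Traf1-208 changed places by TPM in every library. Traf1-209 had 125, 71.9 and 82.7 TPM there and Traf1-208 had 116, 55.8 and 66.2 TPM. By estimated counts they did not change places, with 422, 464 and 397 for Traf1-209 against 3545, 3295 and 2952 for Traf1-208. The longer coding transcripts were lower than Traf1-208 in both tables. In the table made from alignments, Traf1-201 had 31.4, 44.4 and 68.9 TPM and Traf1-207 had 38.3, 19.9 and 20.9 TPM. These 2 coding transcripts ranked the libraries differently, with Traf1-207 above Traf1-201 in replicate 1 and below it in replicates 2 and 3. In replicate 1 they rest on 1344 and 636 counts with posterior SDs of 50.5 and 64.2 reads. The difference was smallest in replicate 1 in TPM but in replicate 2 in counts. Replicate 2 had 1241 counts for Traf1-207 and 1577 for Traf1-201, and replicate 3 had 1004 and 1885. All protein-coding transcripts of Traf1 together had 136, 96.7 and 128 TPM. The edges of the intron held in Traf1-208 are shown so that the splice sites its RNA runs across can be read, with intronic bases in capitals and the transcript's own strand 5′ to 3′. Taken from the GENCODE M21 transcripts, they are:
Traf1 exon into intron (chr2:34957929-34957988): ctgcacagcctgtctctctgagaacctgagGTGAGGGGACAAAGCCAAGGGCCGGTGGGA
Traf1 intron into exon (chr2:34956251-34956310): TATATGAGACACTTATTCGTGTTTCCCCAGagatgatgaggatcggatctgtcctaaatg
The intron opens with GT and closes with AG, the usual ends of an intron.

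**Figure D2:**
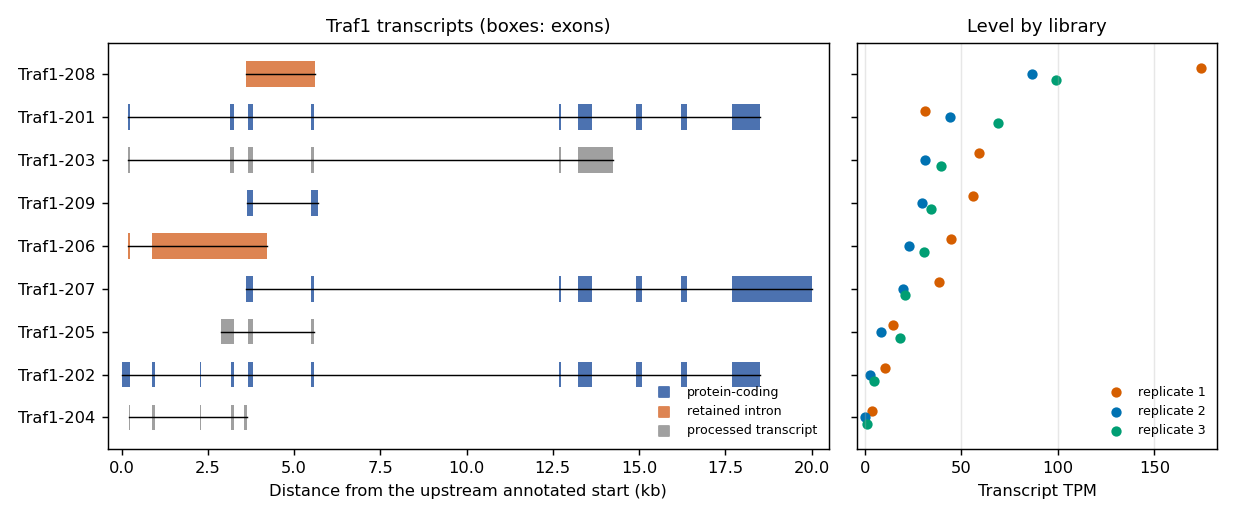
The 9 annotated Traf1 transcripts drawn to scale by distance from the upstream start (left; boxes are exons, coloured by annotated class) and their TPM in each library (right; points are libraries). Traf1-208, the single-exon transcript through an intron, is the highest in every library of the table made from alignments, which is plotted. In the table made from reads directly Traf1-209 is higher in TPM but not in counts.

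Traf1 RNA also fell into groups by annotated start. A downstream start, 3609 bases from the upstream one, is annotated for Traf1-207, Traf1-208 and Traf1-209, which together held 62.1%, 55.3% and 48.5% of the gene's transcript TPM. The 5 transcripts of the upstream start held 34.5%, 41.3% and 45.6%. The downstream share was the larger in 3 of 3 libraries, by the smallest margin in replicate 3. It was 52.2% ± 6.72 of counts, where upstream was the larger in replicate 3, and 60.9% ± 4.42 of TPM in the table made from reads directly. Most of it lay on Traf1-208, with 40.3%, 35.2% and 31.2% of the TPM in the table made from alignments. The intron in Traf1-208 is also part of unspliced RNA from the upstream start, so reads from it do not tell the starts apart. Traf1-207 and Traf1-209 averaged 7.84% and 11.9%, against 40.5% for the upstream start, so the order of the starts there rests on Traf1-208. The region just before the downstream start is intronic for the coding transcripts of the upstream start. It is printed because the largest share of Traf1 TPM lay on transcripts annotated to begin at its end. Its 250 bases (chr2:34958164-34958413, minus strand, read from Traf1-206), with the AP-1 type motif in capitals, are:
Traf1 before the downstream start: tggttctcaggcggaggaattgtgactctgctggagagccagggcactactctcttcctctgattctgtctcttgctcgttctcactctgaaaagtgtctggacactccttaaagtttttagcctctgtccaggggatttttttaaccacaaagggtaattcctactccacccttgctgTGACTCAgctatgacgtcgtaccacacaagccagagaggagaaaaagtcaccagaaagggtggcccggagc
The motif searched was TGANTCA, a palindrome that reads alike on both strands. It was found once, at -71 to -65 from the start, and the kappaB consensus was not found. This window was chosen after the transcript values were seen. Of 32851 RefSeq promoter windows of the same 300-base length (250 before to 50 after a start, GRCm38.p6), 7.81% held TGANTCA, 4.51% the kappaB consensus, 24.9% TATAA and 35.7% GGGCGG on either strand. The RefSeq window at the upstream Traf1 start held none of the 4. A match or its absence describes letters only.

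Traf2, the adaptor that brings the cIAP ligases to TNF receptors, lies on the same chromosome (chr2:25517982-25546940, minus strand). It was at 23.0, 24.9 and 24.8 TPM, on expected counts of 811, 1484 and 1116, and was among the steadiest members, with an SD of 0.12 in log2 CPM against a median of 0.22 for genes of like level. Its highest transcript was Traf2-203, annotated as retained intron, at 12.5, 10.7 and 9.55 TPM. The coding Traf2-201 had 6.12, 8.52 and 9.33 TPM, so the gap between the 2 was widest in replicate 1 and smallest in replicate 3. Traf2-203 holds a whole intron of 1980 bases (chr2:25528307-25530286), whose edges follow, intronic bases in capitals:
Traf2 exon into intron (chr2:25530257-25530316): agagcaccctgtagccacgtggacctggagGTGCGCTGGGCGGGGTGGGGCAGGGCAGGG
Traf2 intron into exon (chr2:25528277-25528336): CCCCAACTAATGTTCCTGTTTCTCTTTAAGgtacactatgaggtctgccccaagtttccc
Of the 31-base words of Traf2-203, 4.16% also occur in transcripts of 822 other genes, so the assignment of reads from those stretches is uncertain. The processed pseudogene Gm13433 lies inside Traf2 on the opposite strand. It had 9.89, 16.1 and 12.3 TPM, and the sources used here do not say whether strand was used in counting, so overlapping genes of either strand are uncertain.

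Traf5, whose protein binds many of the same receptors as TRAF2, lies on chromosome 1 (chr1:191997205-192092559, minus strand). Its level was 11.8, 9.70 and 10.8 TPM on 216, 270 and 233 expected counts. The table made from reads directly gave another picture, with 61.9, 51.5 and 55.3 TPM on 1972, 3126 and 2524 estimated counts. The ratio of the means was 5.22 for TPM and 10.6 for counts, against medians of 1.28 and 1.73 over detected protein-coding genes. A difference of 2-fold or more between the tables was seen for 1 of 7 TRAF genes, Traf5, and for 17.7% of protein-coding genes in both tables. A count ratio at least as large was seen for 0.498% of them. The gap lay on Traf5-203, a retained-intron transcript of 2084 bases, with 7.30, 3.86 and 3.49 TPM in 1 table and 57.3, 46.0 and 47.9 in the other. In Traf5-203, 1763 bases are intronic, and 245 of its 2054 31-base words (11.9%) occur in transcripts of 78 other genes. Whether those shared words account for the gap was not tested. The coding Traf5-201 had 1.46, 2.01 and 2.09 TPM, and 2.55, 3.03 and 3.75 TPM in the other table, which is a far smaller gap. The exon of Traf5-203 runs into the intron here, intronic bases in capitals:
Traf5 exon into intron (chr1:192057110-192057169): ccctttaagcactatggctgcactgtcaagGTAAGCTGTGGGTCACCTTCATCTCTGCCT

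**Figure D3:**
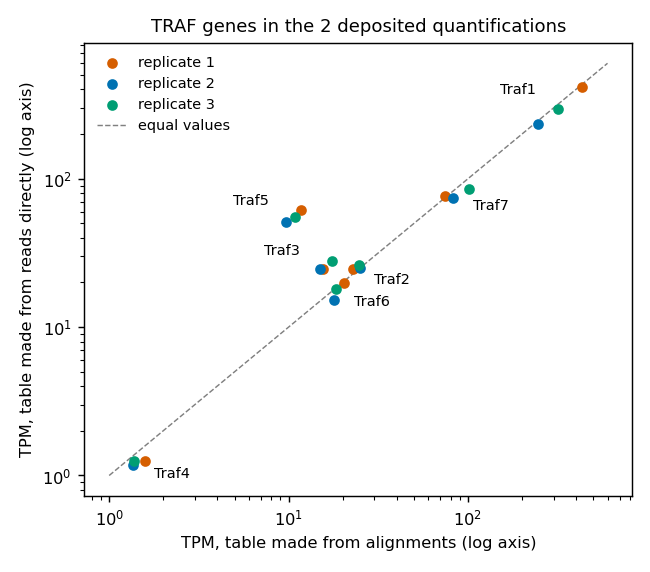
TPM of the TRAF genes in the table made from alignments (horizontal) against the sum over transcripts in the table made from reads directly (vertical), both on log axes; points are the 3 libraries and the dashed line marks equal values. Traf5 lies above the line by a mean ratio of 5.22 and Traf3 by 1.62, and the other 5 genes have mean ratios of 0.850 to 1.05.

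Traf3, the adaptor of the TRIF branch and a brake on NIK, lies on chromosome 12 (chr12:111166370-111267153, plus strand) and has the longest span of the family, 100784 bases. It was at 15.6, 14.9 and 17.4 TPM on expected counts of 601, 1340 and 989. By annotated class it had the largest coding share of the family. Protein-coding transcripts held 81.3%, 88.5% and 95.3% of its TPM, against a median of 53.0% ± 2.57 over detected protein-coding genes. The full-length coding Traf3-201 had 5.53, 8.18 and 8.17 TPM and 78.2% ± 8.56 of the counts. The short coding Traf3-204, of 645 bases, had 5.60, 3.74 and 7.50 TPM but only 3.69% ± 1.37 of the counts. Its only retained-intron transcript, Traf3-205, had 2.91, 1.71 and 0.810 TPM, and 83 of its bases are intronic. Traf3 RNA from other intronic bases has no annotated transcript to be assigned to. The coding share therefore does not show how much Traf3 RNA was spliced. The RefSeq promoter window of Traf3 was the richest in G and C of the 7, at 84.0% against a median of 52.7% over all windows. It was also the only one of the 7 with a match to the kappaB consensus, GGGGATTTCC at -10 to -1 from the start, beside 4 matches to GGGCGG. The gene 4930595D18Rik overlaps Traf3 on the opposite strand. It was listed at 0 in the gene table in every library and at 12.8, 8.99 and 8.26 TPM in the table made from reads directly.

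Traf6, the ubiquitin ligase below MyD88 and the IRAK kinases, lies on chromosome 2 (chr2:101678429-101701669, plus strand). It was at 20.3, 17.9 and 18.3 TPM on 663, 1020 and 894 expected counts. Its SD in log2 CPM was 0.03, and 1.5% of 2477 genes of like level had a smaller one; with DESeq2 size factors these were 0.05 and 3.8%, and with library size alone 0.10 and 12.0%. Traf6 is the 1 member with no transcript annotated as retained intron. It has 2 noncoding processed transcripts instead, which held 61.4%, 60.9% and 56.5% of its TPM. Traf6-202 had 6.14, 4.44 and 5.83 TPM, and 1450 of its 1949 bases lie in introns of the coding transcript. Traf6-203 had 6.34, 6.43 and 4.52 TPM, with 264 of 763 bases intronic. The coding Traf6-201, of 6169 bases, had 7.85, 6.98 and 7.97 TPM and was the highest in every library, with 78.5% ± 1.57 of the counts. In the table made from reads directly Traf6-203 was above it in every library, at 8.55, 6.81 and 7.83 TPM against 6.61, 5.58 and 6.30 TPM. Both noncoding Traf6 transcripts hold intronic bases, as the retained-intron transcripts of the other members do.

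Traf4, a member better known from epithelia and cell migration than from immune cells, lies on chromosome 11 (chr11:78158499-78165589, minus strand). It was the lowest member, at 1.59, 1.36 and 1.38 TPM on 52, 79 and 55 expected counts. Exact 95% Poisson intervals, which cover counting error only, were 1.19 to 2.09, 1.08 to 1.69 and 1.04 to 1.80 TPM, and all 3 overlapped. The coding Traf4-201 was at 0 in all 3 libraries of both transcript tables. For this transcript the 3 counts that a value of 0 still allows come to 0.148, 0.0841 and 0.109 TPM. These values cover counting error only, and the 0 is itself an estimated assignment of reads. Traf4-201 has 2078 bases, and Traf4-203 has 3223, of which 1145 are intronic. Reads from the exons they share could come from either, so these values do not bound coding Traf4 RNA. All Traf4 counts were assigned to retained-intron transcripts, Traf4-203 with 52.0, 79.0 and 53.0 counts and Traf4-202 with 2.00 in replicate 3. Traf4-203 keeps a short intron of 244 bases (chr11:78160549-78160792) and runs 901 bases past the end of the coding transcript. The whole intron with 20 exonic bases on each side is shown, since it is 1 of the 2 stretches of Traf4-203 that lie outside the exons of coding transcripts (chr11:78160529-78160812, intronic bases in capitals):
Traf4 whole intron: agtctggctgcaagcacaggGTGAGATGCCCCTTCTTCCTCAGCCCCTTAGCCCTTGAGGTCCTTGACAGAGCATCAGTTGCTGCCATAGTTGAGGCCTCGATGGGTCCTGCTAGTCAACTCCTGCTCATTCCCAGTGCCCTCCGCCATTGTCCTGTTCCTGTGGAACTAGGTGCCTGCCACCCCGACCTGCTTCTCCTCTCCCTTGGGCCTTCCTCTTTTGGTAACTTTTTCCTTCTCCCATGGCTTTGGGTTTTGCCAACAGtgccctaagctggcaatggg

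Traf7, the WD40 member linked to the kinase MEKK3 (Map3k3), lies on chromosome 17 (chr17:24508562-24527938, minus strand). It was at 74.4, 83.0 and 102 TPM, lowest in replicate 1, and second in the family. By counts it was close to Traf2: 685, 1744 and 1281 expected counts were 0.845, 1.18 and 1.15 times those of Traf2, while its TPM was 3.24, 3.34 and 4.13 times that of Traf2. The effective length of Traf7 was 0.261, 0.352 and 0.278 times that of Traf2. It has 26 annotated transcripts, 8 of them retained intron, and the highest was Traf7-214, of 500 bases, with 33.5, 23.8 and 34.2 TPM on 107, 113 and 129.8 counts. Traf7-214 held 35.7% ± 8.41 of the gene's TPM and 10.8% ± 4.64 of its counts. Next came Traf7-218, also retained intron, with 8.83, 11.9 and 15.8 TPM, and the coding Traf7-215 had 4.03, 5.77 and 6.03 TPM. Summed over protein-coding transcripts, Traf7 had 7.57, 19.9 and 12.9 TPM, a range that includes the means of Traf2 (13.3 ± 2.49) and Traf3 (14.2 ± 2.09). In TMM-scaled log2 CPM its SD was 0.37, against a median of 0.22 for genes of like level. It was wider than that of Traf1 (0.32) on this scaling and narrower with library size alone (0.30 against 0.40). The exon of Traf7-214 runs into the intron here, intronic bases in capitals:
Traf7 exon into intron (chr17:24512920-24512979): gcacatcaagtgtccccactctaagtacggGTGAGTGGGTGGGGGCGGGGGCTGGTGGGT
Rab26 overlaps Traf7 on the same strand and had 1.49, 1.42 and 1.34 TPM. Caskin1 overlaps it on the opposite strand and had 0.480, 0.410 and 0.230 TPM.

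Across the family, the highest transcript by mean TPM in the table made from alignments was a retained intron for 5 of the 6 members that have one (Traf1, Traf2, Traf4, Traf5 and Traf7), and for 48.2% of 5881 detected protein-coding genes that have one. This holds for that table and measure: the highest transcript of Traf1 was the coding Traf1-209 in the table made from reads directly, and that of Traf7 by mean share of counts was the coding Traf7-215, with 18.4% ± 0.953 of them. The retained-intron Traf7-219 was close, with 16.9% ± 1.33, and in replicate 1 it was above Traf7-215, with 126 against 122 counts. The share of a gene's TPM on such transcripts averaged 45.3% ± 4.89 for Traf1, 45.3% ± 8.18 for Traf2, 11.6% (18.7%, 11.5% and 4.66%) for Traf3, 100.0% for Traf4, 69.4% ± 17.4 for Traf5 and 72.3% ± 8.73 for Traf7. The median over those 5881 genes was 48.1% ± 2.41, so on this measure Traf1 and Traf2 lay near that median and Traf3 below it. The spread of the share over those genes was not computed. In each of Traf1, Traf2, Traf3, Traf5 and Traf7 the share was highest in replicate 1, as was the median over those genes (50.8%, 46.4% and 47.0%). Shares of TPM favour short transcripts. By counts the retained-intron share was 54.6% for Traf1, 56.6% for Traf2, 4.47% for Traf3, 73.1% for Traf5 and 52.2% for Traf7. The median over those genes was 31.7% by counts, so Traf1 and Traf2 were above it. In the table made from reads directly the TPM share was 32.4% for Traf1 and 55.1% for Traf2, against a median of 45.9%. No 31-base word of 43503 was shared between transcripts of different TRAF genes, so exact 31-base matches give no mixing within the family.

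**Figure D4:**
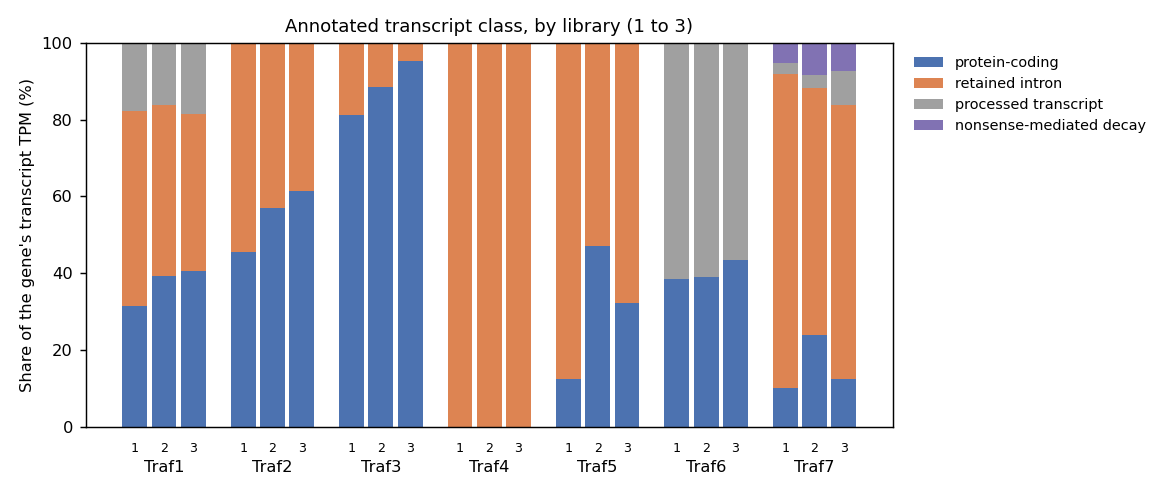
Share of each TRAF gene's transcript TPM by annotated transcript class (vertical axis, percent), with 1 bar for each library numbered 1 to 3. Retained-intron transcripts fill the bars of Traf4, are absent from Traf6 and hold 4.66% to 18.7% of Traf3.

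With only protein-coding transcripts summed, the levels below Traf1 took another order. Traf1 had a mean of 121 TPM, Traf3 14.2 ± 2.09, Traf7 13.4 ± 6.18, Traf2 13.3 ± 2.49, Traf6 7.60 ± 0.542, Traf5 3.17 ± 1.58, and Traf4 was listed at 0. Short transcripts weigh on these sums. That of Traf3 included a mean of 5.61 TPM from Traf3-204, of 645 bases, with 3.69% of the gene's counts. That of Traf1 included 39.9 TPM from Traf1-209, of 386 bases, with 1.09% of the gene's counts. The order without such transcripts was not computed. Traf1 was still above the median of the others, by 3.57 ± 0.39 in log2(TPM + 1). The number of pairs with 1 sign in 3 of 3 libraries was then 17 of 21.

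The genes around the TRAFs were read from lists by role, with levels from the gene table unless stated. Of 14 TNF receptor family members that recruit TRAFs, 8 were at 1 TPM or more in each library, and the median of the list was 4.22 ± 0.906 TPM. Cd40, which signals through TRAF2, TRAF3 and TRAF6, was the highest at 501, 254 and 410.0 TPM, followed by the TNF receptor Tnfrsf1b at 191 ± 19.3 and the LIGHT receptor Tnfrsf14 at 104 ± 32.4. Tnfrsf13c, the BAFF receptor of B cells, was listed at 0 in every library of the gene table, while the table made from reads directly put it at 5.07 TPM on average. Cd40 and Traf1 ranked the libraries alike, highest in replicate 1 and lowest in replicate 2.

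All 9 partners in TRAF2 and TRAF3 complexes reached 1 TPM in all libraries, and the list median was 48.6 ± 5.42 TPM. Tank, a TRAF-binding adaptor of TBK1, was at 472, 194 and 249 TPM, and Birc3 (cIAP2) at 323, 220.0 and 259 TPM. Rnf31, the catalytic subunit of the linear ubiquitin ligase, had 92.0 ± 12.8 TPM. Map3k14, which encodes NIK, was the lowest at 3.59, 7.61 and 4.83 TPM.

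On the TLR and interleukin-1 receptor branch to TRAF6, 9 of 9 genes reached 1 TPM in all libraries, and the list median was 23.3 ± 3.02 TPM, close to the 18.8 ± 1.32 of Traf6 itself. Irak2 was highest at 269, 209.8 and 216 TPM. Peli1, a ubiquitin ligase that acts with the IRAK kinases, followed at 321, 124 and 161 TPM, an SD of 105 TPM against 94.5 for Traf1. Ube2n, the ubiquitin-conjugating enzyme that TRAF6 uses, had 39.4 ± 12.8 TPM, and Irak4 was lowest at 9.35 ± 0.950 TPM.

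Downstream, 9 of 9 kinases and adaptors reached 1 TPM in all libraries, and the list median was 25.1 ± 2.37 TPM. Ikbke, the interferon-pathway kinase IKK-epsilon, was above every TRAF gene at 1786, 1618 and 1640 TPM. Its relative Tbk1 had 220.1 ± 46.7 TPM and Tab2, the ubiquitin-binding partner of TAK1, had 90.1 ± 21.4. Mavs, the adaptor of cytoplasmic RNA sensing, was lowest at 2.85 ± 0.467 TPM.

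Among 12 genes for TRAF-interacting proteins and enzymes that act on TRAF ubiquitin chains, 10 reached 1 TPM in all libraries, and the list median was 12.9 ± 2.32 TPM. Trafd1, a zinc-finger protein known to restrain TLR signalling, was highest at 354 ± 54.2 TPM. Tnfaip3, which encodes the ubiquitin-editing protein A20, had 424, 204 and 287 TPM, again highest in replicate 1 and lowest in replicate 2. The deubiquitinase Usp25 had 55.4 ± 14.7 TPM, and Traip was lowest at 0.467 ± 0.168. Of 6 other genes with a MATH domain, 4 reached 1 TPM in each library, led by Usp7 at 97.1 ± 19.0, Spopl at 43.8 ± 7.91 and Spop at 21.5 ± 2.36 TPM, and the meprin genes Mep1a and Mep1b were at 0. In the gene table Traf1 lay within the range of the leading members of these lists, between Tnfaip3 (305 ± 111) and Cd40 (388 ± 125). In the table made from reads directly Traf1, at 315 TPM, lay above Tank (264). There it was below Tnfaip3 (352), Trafd1 (387), Irak2 (395), Birc3 (507) and Cd40 (1043). Traf2, Traf3 and Traf6, at 24.2, 16.0 and 18.8 TPM in the gene table, lay above the receptor list's median and below that of the TRAF2 and TRAF3 partners.

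**Figure D5:**
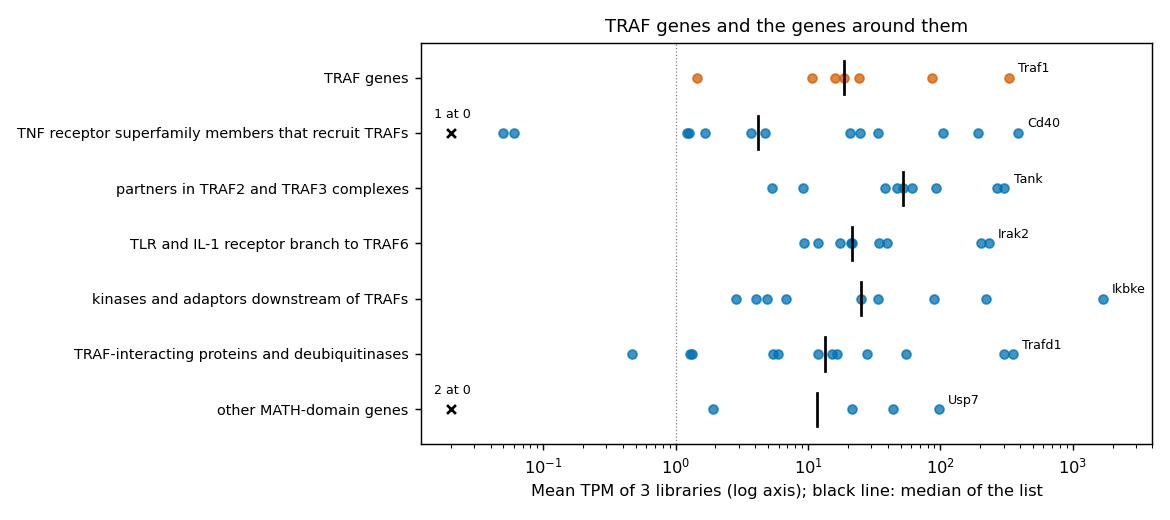
Mean TPM over 3 libraries (log axis) of the TRAF genes (orange) and of 6 lists of genes around them (blue); each point is a gene, the black line is the median of these means, crosses mark genes at 0 and the highest gene of each list is named. Ikbke is the highest of all at 1681 TPM, and the lists' highest genes other than Ikbke and Usp7 lie between 232 and 388 TPM.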

How the data were processed

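Chromatin-bound RNA of 3 macrophage libraries was depleted of ribosomal RNA and sequenced as total RNA, per the labels. Per the file headers and labels, the authors deposited 3 tables a library on mm10 and GENCODE M21: genes from alignments, transcripts from alignments, and transcripts directly from reads. The aligner and quantifiers were not given in the sources used here. Expected counts, as deposited, are estimates and need not be whole. The deposited TPM values are relative to all rows of a table, including 26345 rows of the gene table that are no annotated gene. These rows held 1.34%, 0.292% and 0.416% of counts and were left out of library sizes. The deposited effective lengths and posterior SDs of counts are in bases and reads, other measures used as they stand. The gene table gave levels and the transcript table from alignments gave class shares, and the table made from reads was the alternative. The p-values come from exact two-sided sign-flip permutation tests on log2(TPM + 1) within libraries, computed here.

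Library sizes from annotated genes, 12502177 to 21683473 counts, put 1 count at 0.0461 to 0.0800 CPM. Expected counts were rounded for TMM factors (edgeR 4.0.16, prior count of 1) and size factors (DESeq2 1.42.0) in R 4.3.3, and the spread script was tested on simulated data. Python 3.11.15 was used for the rest. Genes of like level were protein-coding genes within 1 log2 CPM. Sequences came from GENCODE M21 transcripts and RefSeq promoter windows, in which all 7 genes were matched by symbol. Chi-square per degree of freedom between libraries was 30.5 to 157, more than sampling noise gives. The members and lists were chosen with earlier results of these data known. Named genes were the 7 TRAF genes, the 3 highest and the lowest of each list, the highest of each marker list, the 3 protein-coding genes nearest in level to Traf1 and each TRAF gene's highest transcript. Other TRAF transcripts, markers at 0 and overlapping genes were named after their values were seen. Protein features were not analysed here, and 1 listed marker is not reported here.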

Additional observations from a re-analysis of the deposited data

How the results depend on the processing

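Traf1 exceeded the median of Traf2 to Traf7 under 8 of 8 alternatives, by 3.19 (TMM log2 CPM) to 4.22 (pseudocount of 0.1), and by 3.96 to 4.30 with 1 replicate left out. Traf3 minus Traf6, -0.23 on log2(TPM + 1), turned to 0.52 in the table made from reads, 0.13 in TMM log2 CPM and 0.81 with protein-coding transcripts only, an alternative added after the data were seen; it was -0.16 to -0.30 with 1 replicate left out. The cause was not tested. The number of TRAF pairs with 1 sign in 3 of 3 libraries was 21 with a pseudocount of 0.1, 20 in the table made from reads, 19 in TMM log2 CPM and 17 with protein-coding transcripts only. Rescaling TPM to protein-coding genes multiplied every TRAF gene within a library by 1 factor and set Traf1 at 1084 ± 186 TPM. Of 30 alternative retained-intron shares 22 stayed within 1 SD and 8 moved. Most of the 22 could not have moved, since leaving out 1 of 3 replicates cannot shift a mean by 1 SD and Traf4 stayed at 100.0%. With the table made from reads or with counts, the other members moved except Traf5 by counts (73.1%) and Traf7 in the table made from reads (63.9%). The largest moves were to 92.8% for Traf5 in the table made from reads and to 52.2% for Traf7 by counts. SDs of log2 CPM moved by at most 0.05 with DESeq2 size factors or a count filter; with library size alone, added after the data were seen, they were 0.40 for Traf1, 0.04 for Traf2, 0.19 for Traf3, 0.24 for Traf5, 0.10 for Traf6 and 0.30 for Traf7. With 3 libraries no exact test could pass a threshold, and 52 to 79 counts limit what can be said of Traf4. No paired comparison of conditions was possible because there is 1 group, and genes were compared within libraries.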
